A study of Mus musculus with 8 samples.

Results

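Variant histones whose genes are expressed outside S phase were followed in activated B cells with and without the RNA helicase EIF4A1. The members are the 7 genes H2az1, H2az2, H3f3a, H3f3b, H1f0, H2ax and Macroh2a1. They were taken by gene symbol from the 53242 genes in the deposited tables, as a group named with earlier results of these data known. Splenic B cells of 8 to 12 week old C57BL/6 mice were activated for 24 h on CD40LB cells in medium with IL4 at 40 ng/ml. CD40LB cells are a feeder line that displays CD40 ligand and secretes human BAFF, and they had been irradiated with 120 Gy and were removed with beads before RNA was isolated. Control mice were Eif4a1+/+ CD23-cre and 4A1 KO mice were Eif4a1fl/fl CD23-cre, so both carried the Cre transgene, which is driven by the Fcer2a (CD23) promoter and acts from the immature B cells of the spleen, and the floxed allele loses exons 2 to 4. There were 4 libraries per genotype, and individual mice are the replicates by the description of the methods. Batch A held replicates 1 and 2 and batch B held 3 and 4, and the odd numbers were male and the even ones female. Replicate 1 of both genotypes is described as low in viability and was left out upstream, so the tests used replicates 2 to 4 (n = 3 per genotype).

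Most histone protein is made in S phase from replication-dependent genes, whose mRNAs end in a stem-loop in place of a poly(A) tail. The variants are encoded by separate genes that are also transcribed outside S phase, and most of their mRNAs are spliced and polyadenylated. H3.3 is placed at active genes by the HIRA complex and at repeats by ATRX and DAXX, H2A.Z is exchanged into nucleosomes by the SRCAP and EP400 complexes, and H2AX is phosphorylated around DNA breaks, such as those made in B cells during class switch recombination. The linker histone H1.0 is known to accumulate in cells that stop dividing, and macroH2A1 carries a large macro domain that sets it apart from other H2A proteins.

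The members lie on 6 chromosomes, and coordinates are given for GRCm39 with the GENCODE M39 annotation. H2az1 (ENSMUSG00000037894) spans chr3:137570072-137572690 on the plus strand, and H2az2 (ENSMUSG00000041126) spans chr11:6371231-6394481 on the minus strand. Each has 5 exons in its reference transcript and encodes an H2A.Z protein of 128 residues. H3f3a (ENSMUSG00000060743, chr1:180628051-180642178, minus strand) and H3f3b (ENSMUSG00000016559, chr11:115912738-115918788, minus strand) have 4 exons each, and both encode the histone H3.3, of 136 residues. H1f0 (ENSMUSG00000096210, chr15:78912650-78914704, plus strand) and H2ax (ENSMUSG00000049932, chr9:44245991-44247374, plus strand) have a single exon and no intron. Macroh2a1 (ENSMUSG00000015937, chr13:56221111-56291059, minus strand) has 9 exons and encodes 369 residues. H2az2 and H3f3b share chromosome 11 with Eif4a1, at distances of 63.2 and 46.3 Mb. The annotation has Gm74516 overlapping H3f3b on the same strand, so reads in that overlap cannot be told apart.

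The stem-loop that marks replication-dependent histone mRNA was searched for in the 100 bases after the stop codon, as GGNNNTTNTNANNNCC with arms that pair over their full length. Among the members it was found only in H2ax, where it starts 47 bases after the stop codon, in the 3′ UTR, and the annotated transcript runs on for 822 bases beyond it. It was found in 45 of the 67 replication-dependent histone genes with a coding transcript in GENCODE M39, many of which are annotated with less than 100 bases after the stop codon. Of the 20309 protein-coding genes with a full window, 33 (0.162%) had it. The H2ax site is shown beside those of a replication-dependent H2A gene and a replication-dependent H4 gene, to show what H2ax has in common with them. Capitals mark the stem-loop. The sites are at chr9:44246532-44246557 (plus strand), chr13:22226648-22226673 (minus strand) and chr13:22225131-22225156 (minus strand), all in 3′ UTRs.
H2ax: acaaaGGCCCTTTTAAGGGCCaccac
H2ac11: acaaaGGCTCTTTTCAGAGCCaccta
H4c9: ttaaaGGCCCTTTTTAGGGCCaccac
The other 6 members had no match in this window, which says only that these letters are not there.

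H3f3a and H3f3b can be told apart by their reads although they encode the same histone. Their coding sequences of 411 bases differ at 95 positions (76.9% identity), and those of H2az1 and H2az2, of 387 bases, differ at 81 (79.1%). The first 30 coding bases of the H3.3 genes are shown to give the density of these differences, with capitals where they differ. They lie at chr1:180639462-180639491 and chr11:115914806-115914835, both exonic and on the minus strand, and differ at 8 of 30 bases.
H3f3a: atggcTcgTacAaagcagacTgcCCgCaaA
H3f3b: atggcCcgAacCaagcagacCgcTAgGaaG

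Promoter windows of 300 bases from RefSeq (GRCm38.p6) were found for 6 of the 7 members; none was given for H2ax. The CCAAT box, a common element of promoters that fire with the cell cycle and of many others, was searched for on both strands and is present in 37.4% of all 32851 windows. H2az2 and H3f3b had 4 matches each, H2az1 had 3 and H3f3a had 1, and H1f0 and Macroh2a1 had 0. The E2F-like motif TTTNNCGC was in none of the 6 windows and in 5.17% of all. For the H2A.Z and H3.3 genes the most downstream CCAAT match is shown, with the box in capitals in the gene's direction (ATTGG where it lies on the opposite strand). These matches start 22 bases after the transcription start for H2az1, and 17, 24 and 97 bases before it for H2az2, H3f3a and H3f3b.
H2az1: aggcaaccATTGGtgggccga
H2az2: gagcggctATTGGtggaggcg
H3f3a: tgtgtgtgATTGGctggagcg
H3f3b: agctcccgCCAATcgaaaaag
The matches are a description of these windows and not evidence of a bound site.

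Between 38488341 and 43210858 reads were counted on genes per library in replicates 2 to 4, and 31727557 in 4A1 KO 1, the smallest of the 8. Eif4a1 had 748 to 940 CPM (counts scaled to library size) in controls and 556 to 689 in 4A1 KO, with no overlap among 8 libraries, and its log2 fold change was -0.44 (SE 0.05, adjusted p = 1.15e-04, edgeR); reads from exons outside the deletion are counted too. The B cell markers Cd79a, Cd79b, Ms4a1, Pax5 and Cd22 were present in every library. Ms4a1 was at 328 to 394 TPM (scaled to transcript length and library size) in controls and 345 to 386 in 4A1 KO, with overlap. The other 4 were lower in 4A1 KO in each of the 4 pairs. Cd79b was at 738 to 842 TPM in controls and 361 to 466 in 4A1 KO and Cd22 at 143 to 180 and 73.9 to 108, both without overlap, and Cd79a at 276 to 484 and 172 to 306 and Pax5 at 292 to 394 and 226 to 327, both with overlap. Of the T cell markers only Trac reached 1 TPM and Cd3g was at 0. The 6 myeloid markers summed to 10.5 to 15.2 TPM in controls and 15.6 to 18.4 in 4A1 KO, 3 of 6 reached 1 TPM and S100a8 was at 0. The 8 fibroblast markers of the feeder line summed to 3.20 to 14.6 TPM in controls and 4.97 to 9.52 in 4A1 KO, 4 of 8 reached 1 TPM, Dcn and Lum were at 0, and control 2 was the highest library. The part of these other cells in the results was not tested. These are bulk samples, so fewer cells of a kind and less RNA per cell cannot be told apart.

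Both H2A.Z mRNAs were lower in 4A1 KO B cells, with changes in mean CPM of -36.2% for H2az1 and -38.7% for H2az2, and the H1.0 mRNA was at 2.28 times its control level. The H3.3 genes changed by 9.18% (H3f3a, not past the test) and 24.8% (H3f3b), H2ax by -22.1% and Macroh2a1 by -1.41% (not past the test). The 7 members all passed the filter on low counts, and 3 of them were called. A call needed an adjusted p below 0.05 together with a log2 fold change beyond 0.5 in either direction, in edgeR's quasi-likelihood test with batch and sex as covariates. Of all 14218 genes tested, 25.3% were called. H1f0 was called higher (11.6% of all genes were), and H2az1 and H2az2 lower (13.7% were). An adjusted p under 0.05 at any fold was reached by 5 members, against 53.0% of all genes, which adds H3f3b and H2ax. In TPM (limma) the same 3 members were called, against 20.2% of genes, and the same 5 had an adjusted p under 0.05, against 50.7%. Over all 8 libraries edgeR also called these 3, against 25.6% of genes, and 5 members had an adjusted p under 0.05, against 56.5%. The genotypes did not overlap over 8 libraries for 3 members in CPM, against 36.8% of genes, and for the same 3 in TPM, against 35.6%; over replicates 2 to 4 they did not overlap in CPM for 4 members, H2ax being the fourth, against 50.9%. The median log2 fold change was -0.02 over the members and 0.0066 over all genes.

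**Figure D1:**
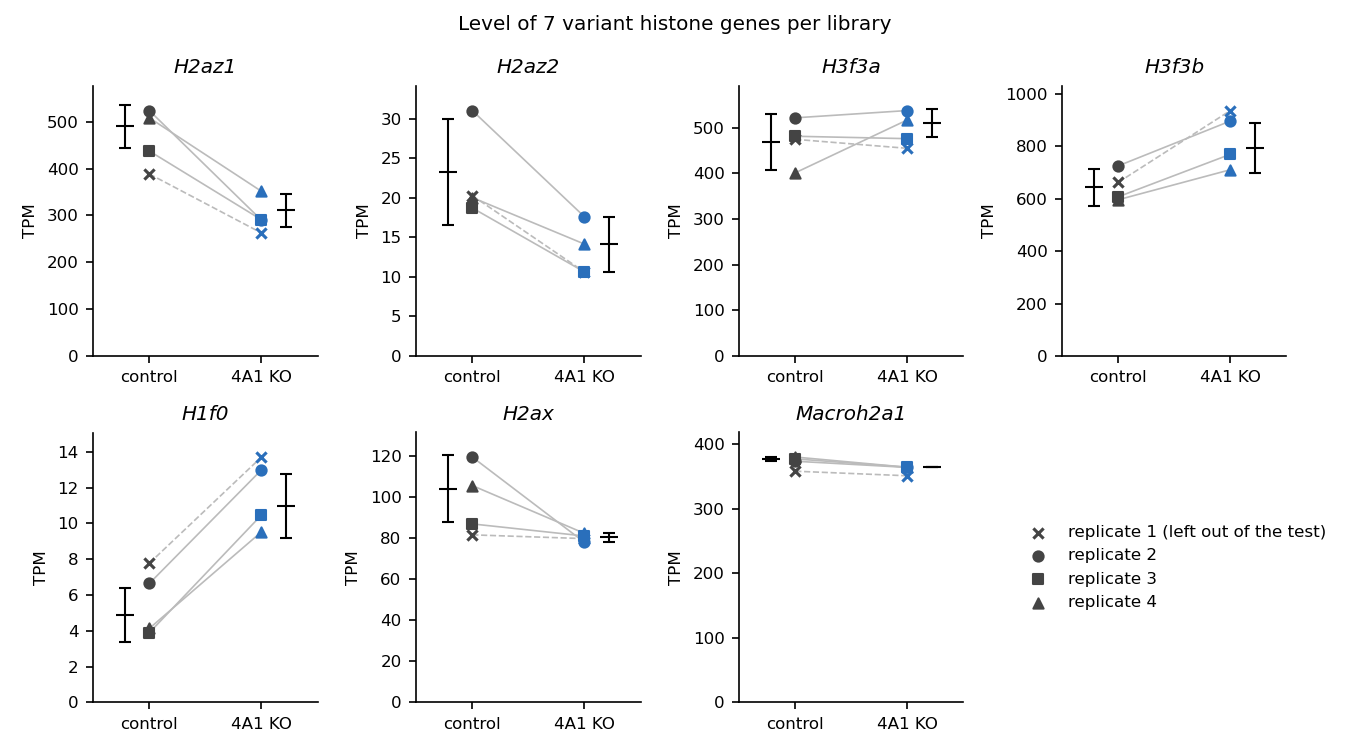
TPM of each member in every library; lines join the same replicate number, dashed for replicate 1, and black bars give the mean ± SD of replicates 2 to 4. For H2az1, H2az2 and H1f0 the 4 control and the 4 4A1 KO libraries do not overlap, and for the other 4 genes they do.

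H2az1 had most of the H2A.Z mRNA in these cells. Its normalised counts were 183, 238, 197 and 222 CPM in controls 1 to 4, against 124, 134, 131 and 155 in 4A1 KO libraries 1 to 4. The highest 4A1 KO library was below the lowest control. In replicates 2 to 4 the means were 219 ± 20.9 CPM (SD, n = 3) for control against 140 ± 13.2 for 4A1 KO, a change of -36.2%. The log2 fold change was -0.65 (SE 0.06, adjusted p = 6.10e-05, edgeR). H2az1 was lower in 4A1 KO within each of the 4 replicate pairs, with changes of -32.6%, -44.0%, -33.6% and -30.3%. The exact permutation test over the 8 libraries gave p = 0.0286 (two-sided), the smallest that 4 against 4 allows. In TPM the difference was -0.66 on the log2(TPM + 1) scale (adjusted p = 0.0011, limma).

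H2az2, the other H2A.Z gene, was expressed at a small fraction of the H2az1 level. It had 15.8, 23.0, 12.5 and 13.5 CPM in controls 1 to 4, against 7.98, 11.9, 7.57 and 10.5 in 4A1 KO libraries 1 to 4. The groups did not overlap, but the gap was narrow, with control 3 at 12.5 and 4A1 KO 2 at 11.9. The libraries of batch A females, replicate 2, were the highest of their genotype. The log2 fold change was -0.68 (SE 0.12, adjusted p = 0.00134, edgeR), and -0.67 in TPM (adjusted p = 0.00194, limma). Without the pairing of same-numbered libraries the log2 fold change was -0.71, with an adjusted p of 0.0674 in counts and 0.0583 in TPM, so this call rests on the comparison within batch and sex. In that fit 2 members were called, H2az1 and H1f0, against 21.1% of all genes. Within pairs H2az2 changed by -49.6%, -48.1%, -39.4% and -22.2%.

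The sum of both H2A.Z mRNAs separated the genotypes, and the share of H2az2 in it did not. H2az1 and H2az2 together had 409, 555, 456 and 529 TPM in controls 1 to 4, against 273, 308, 302 and 366 in 4A1 KO libraries 1 to 4, with no overlap. The mean sum in replicates 2 to 4 was 513 ± 51.1 TPM for control against 325 ± 35.5 for 4A1 KO (n = 3 each), a change of -36.7%. H2az2 made up 4.49% ± 0.962 of the control sum and 4.37% ± 1.18 of the 4A1 KO sum, a difference smaller than the SD of either group, and the libraries overlapped. The difference of -0.12 percentage points was -0.25 without replicate 2 and 0.10 without replicate 3. No test was made on the shares.

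The 14 genes of H2A.Z exchange were described as a list. All were tested, 3 were called higher (11.6% of all genes were), 0 lower (13.7%), and 11 were not called, with a median log2 fold change of 0.12. Epc1, a scaffold of the TIP60 complex, rose by 0.78 on the log2 scale (SE 0.07, adjusted p = 3.87e-05, edgeR). Ino80, the ATPase of the INO80 remodeller, rose by 0.59 (SE 0.06, adjusted p = 7.56e-05, edgeR), and Srcap, the ATPase that inserts H2A.Z, by 0.58 (SE 0.05, adjusted p = 4.02e-05, edgeR). At an adjusted p under 0.05 and any fold, 6 of the 14 were higher and 3 lower in 4A1 KO, against 26.3% and 26.7% of all genes.

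H3f3b was higher in 4A1 KO by less than the threshold for a call. It was the more abundant H3.3 gene in TPM as deposited in every library. Once the TPM of matched pseudogenes was added it was so in 4A1 KO 1 alone, with a share of 52.8% there and 43.6% to 49.7% in the other libraries. Its counts were 731, 772, 604 and 605 CPM in controls 1 to 4, against 1010, 955, 804 and 714 in 4A1 KO libraries 1 to 4. The groups overlapped, since 4A1 KO 4 was below controls 1 and 2. Within each pair the 4A1 KO library was the higher, by 38.1%, 23.6%, 33.1% and 18.0%. The log2 fold change was 0.32 (SE 0.05, adjusted p = 5.80e-04, edgeR), and without the pairing the adjusted p was 0.0926. The exact permutation test over 8 libraries, which ignores the pairs, gave p = 0.0857 (two-sided).

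H3f3a showed no difference that passed the test. It had 232, 252, 215 and 183 CPM in controls 1 to 4, against 253, 261, 229 and 220 in 4A1 KO libraries 1 to 4, and the groups overlapped. The log2 fold change was 0.13 (SE 0.05, 95% interval 0.01 to 0.26, adjusted p = 0.0611, edgeR). Over the 12 alternatives in counts the adjusted p ran from 0.0336 to 0.443. It was 0.0336 with upper quartile scaling and 0.0465 with reads of its pseudogenes added, against 0.320 without replicate 4 and 0.443 without the block, and the gene was called under none of them. In TPM the difference was 0.13 (adjusted p = 0.209, limma), and 0.014 without replicate 4 (adjusted p = 0.853, limma). In counts the difference without replicate 4 was 0.07. Within pairs its CPM was higher in 4A1 KO in all 4, by 9.11%, 3.76%, 6.39% and 19.9%, whereas its TPM changed by -4.16%, 3.06%, -1.09% and 28.9%. The pair of replicate 4 had the largest change on both scales.

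The H3.3 genes together had 1137, 1248, 1089 and 998 TPM in controls 1 to 4, against 1392, 1435, 1246 and 1228 in 4A1 KO libraries 1 to 4. Each 4A1 KO library was above the control of its number, but 4A1 KO 3 and 4 were just below control 2. H3f3b made up 57.9% ± 2.00 of the control sum and 60.7% ± 2.49 of the 4A1 KO sum (SD, n = 3), a difference of 2.82 percentage points, with overlap. That difference was 1.23 points without replicate 3 and 5.17 points without replicate 4, and 4.38 points over all 8 libraries. 4A1 KO 1 had the highest share, 67.3%, and 4A1 KO 4 was the only 4A1 KO library below its control (57.9% against 59.8%).

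**Figure D2:**
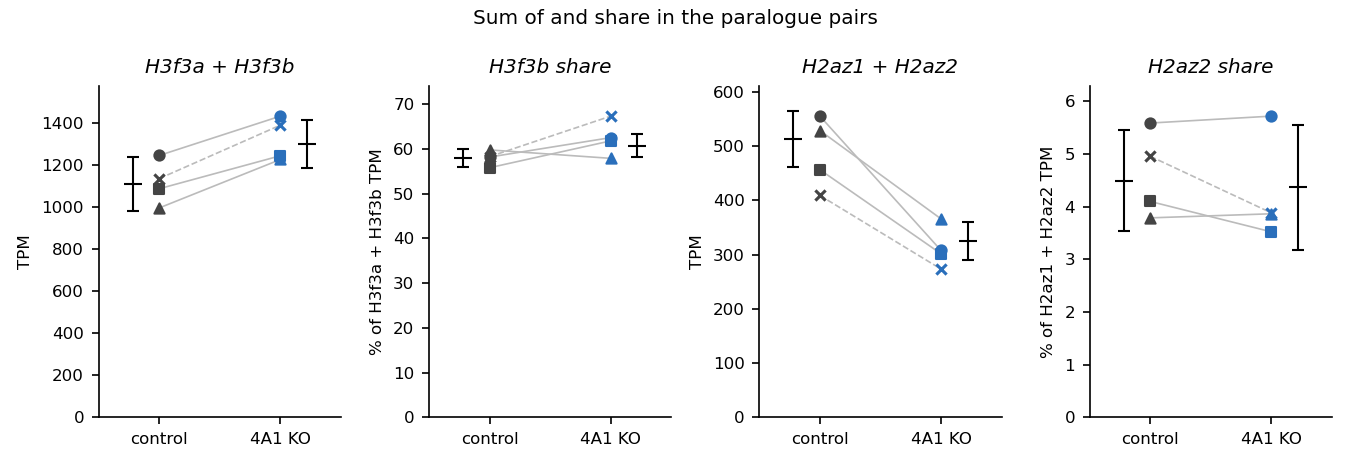
Sum of TPM and percentage share of the second gene for the H3.3 and H2A.Z pairs in every library, drawn as in the plot of TPM by library. The H2A.Z sum separates the genotypes, with 409 to 555 TPM in control and 273 to 366 in 4A1 KO, and the shares overlap in both pairs.

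Processed pseudogenes touch the H3.3 and H2A.Z values, and differently in counts and in TPM. At 95% identity or more over at least 200 bases, 15 pseudogenes matched H3f3a, 2 matched H2az1 and 1 matched H3f3b, and none matched the other 4 members. The H3f3a pseudogenes together had 15.6% to 19.2% of the reads of H3f3a, but 68.9% to 91.2% of its TPM, with Gm6421 and H3f3c the largest. The H2az1 pseudogenes together had 18.6% to 20.6% of the reads of H2az1, but 0.803% to 1.82% of its TPM. Among them Gm8203, identical to the H2az1 mRNA over 387 bases, had 774 to 1921 reads per library. It was at 0 TPM in all libraries except control 4 (3.53 TPM). The H3f3b pseudogene Gm37486 had 0.423% to 0.560% of the reads of H3f3b and 3.62% to 4.32% of its TPM. How reads with several places were assigned is not given in the sources used here. The level of H3f3a against H3f3b is therefore uncertain, and so is the level of H2az1 against other genes. With the TPM of the pseudogenes added to their gene, an alternative chosen after seeing the data, the H3f3b share was 45.0% ± 1.28 in control and 47.9% ± 2.13 in 4A1 KO. With their reads added, the log2 fold changes were -0.65 for H2az1, 0.14 for H3f3a and 0.32 for H3f3b.

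The 8 genes of H3.3 deposition went both ways, with 1 called higher, 1 lower and a median log2 fold change of -0.06. That is 2 of 8, against 25.3% of all genes called, so the count does not set the list apart from other genes. Ubn2, a subunit of the HIRA complex, rose by 0.76 on the log2 scale (SE 0.08, adjusted p = 1.03e-04, edgeR). Dek, a chromatin protein that acts as an H3.3 chaperone, fell by 0.54 (SE 0.05, adjusted p = 3.18e-05, edgeR). Atrx, which deposits H3.3 at repeats with DAXX, was lower by less than the threshold (log2 fold change -0.48, SE 0.07, adjusted p = 5.11e-04, edgeR).

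H1f0 encodes H1.0 and had the largest relative difference of the 7, at the lowest control level. Its counts were 8.84, 7.32, 4.21 and 4.34 CPM in controls 1 to 4, against 15.8, 14.4, 11.5 and 10.3 in 4A1 KO libraries 1 to 4. The groups did not overlap, and both genotypes were higher in batch A than in batch B. In replicates 2 to 4 the raw counts were 175 to 296 in control and 439 to 556 in 4A1 KO. Control averaged 5.29 ± 1.76 CPM and 4A1 KO averaged 12.1 ± 2.14 (SD, n = 3), and the log2 fold change was 1.22 (SE 0.12, adjusted p = 5.66e-05, edgeR). Within pairs the increase was 79.0%, 97.0%, 173% and 136%. The batch B effect exceeded the batch A effect by 0.44 on the log2 scale, which did not pass adjustment over all genes (adjusted p = 0.999, edgeR interaction term, 8 libraries).

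H2ax was lower in 4A1 KO by less than the threshold for a call, and its controls varied far more than its 4A1 KO libraries. It had 62.1, 88.8, 64.1 and 74.9 CPM in controls 1 to 4, against 62.2, 58.3, 59.8 and 59.3 in 4A1 KO libraries 1 to 4. Control 1 was level with 4A1 KO 1, so the groups overlapped over 8 libraries, while in replicates 2 to 4 they did not. The log2 fold change was -0.35 (SE 0.09, adjusted p = 0.00895, edgeR). Without replicate 2 it was -0.22, with an adjusted p of 0.0780. The female libraries carried most of the difference: within pairs H2ax changed by 0.244% and -6.61% in males and by -34.4% and -20.8% in females. The 0.244% is of replicate 1, low in viability and left out of the main tests, so the contrast of the sexes rests in part on it. Taken as males minus females, the log2 fold changes differed by 0.43, the fall being the smaller in males, and this difference did not pass adjustment over all genes (adjusted p = 1, edgeR interaction term, 8 libraries). In CPM control 2 was the highest of the 8 libraries for H2ax, H2az1, H2az2 and Macroh2a1 and the highest control for H3f3a and H3f3b. It also had the highest fibroblast marker sum, and the part of that in these values was not tested.

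Of the 9 H2AX kinases and readers, 0 were called in edgeR, 2 were higher and 4 lower at an adjusted p under 0.05 with any fold, and the median log2 fold change was -0.13. Of all genes 25.3% were called, and 26.3% were higher and 26.7% lower at an adjusted p under 0.05. Rnf168, a ubiquitin ligase that marks chromatin at breaks, had -0.39 (SE 0.06, adjusted p = 0.00103, edgeR). Eya3, a phosphatase of H2AX, had -0.29 (SE 0.05, adjusted p = 0.00162, edgeR), and the kinase gene Prkdc had -0.29 (SE 0.06, adjusted p = 0.00303, edgeR).

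Macroh2a1 had 363, 368, 361 and 356 CPM in controls 1 to 4, against 363, 366, 354 and 349 in 4A1 KO libraries 1 to 4. In CPM the groups overlapped and every pair was within 2% of equality. The log2 fold change was -0.02 (SE 0.04, 95% interval -0.12 to 0.08, adjusted p = 0.711, edgeR). In TPM it was -0.05 (adjusted p = 0.330, limma). TPM was lower in 4A1 KO in all 4 pairs, with changes of -1.98%, -2.56%, -3.42% and -4.17%, and over replicates 2 to 4 the groups did not overlap, with 373 to 380 TPM in control against 364 in each 4A1 KO library. Control 1, at 358 TPM, was below these, so the groups overlapped over 8 libraries.

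**Figure D3:**
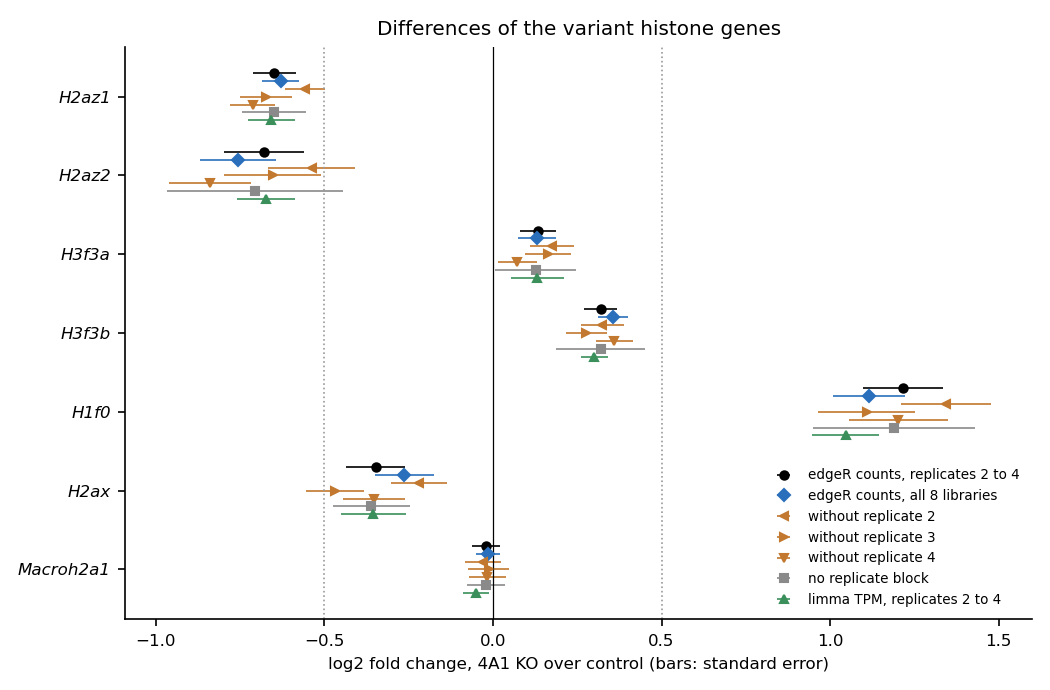
log2 fold change of 4A1 KO over control for each member with its standard error, in counts for replicates 2 to 4, all 8 libraries, each replicate left out and no replicate block, and in TPM; dotted lines mark the threshold of 0.5. H2az1, H2az2 and H1f0 lie outside the dotted lines under all 7 settings shown, and H3f3a, H3f3b, H2ax and Macroh2a1 inside them.

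Levels of different genes were compared in TPM, which is per transcript length. In control the order was H3f3b (643 TPM on average over replicates 2 to 4), H2az1 (490), H3f3a (468), Macroh2a1 (377), H2ax (104), H2az2 (23.3) and H1f0 (4.89). H2az1 (438 to 524 TPM) and H3f3a (401 to 522) did not differ beyond their spread, and the other neighbours did not overlap. In 4A1 KO the order was H3f3b (792 TPM), H3f3a (511), Macroh2a1 (364), H2az1 (311), H2ax (80.3), H2az2 (14.1) and H1f0 (11.0). H2az1 thus stood below Macroh2a1, with no overlap over replicates 2 to 4 (290 to 352 against 364 to 364 TPM). Over all 8 libraries these genes overlapped, since Macroh2a1 was at 351 TPM in 4A1 KO 1. H2az2 (10.6 to 17.6) and H1f0 (9.53 to 13.0) overlapped over replicates 2 to 4. Among the 12976 genes averaging 1 TPM or more, H3f3b ranked 230 in control and 189 in 4A1 KO, H2az1 moved from 314 to 517, and H1f0 from 9999 to 8024. The H3f3a and H2az1 levels carry the pseudogene limit given above, so the place of H2az1 against Macroh2a1 is uncertain.

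Replication-dependent histone genes, the counterpart of the members, had few reads. Of 65 in the table only 22 passed the filter on low counts, and 6 had 0 reads in all libraries. The 22 had at least 10 reads in each of controls 2 to 4, but only 5 of them did in each of 4A1 KO libraries 2 to 4. The other 17 passed through their control level, which selects genes that are lower in 4A1 KO, so no count of calls or median is given for this list. The low counts are of the reads that this preparation captured; whether poly(A) RNA was selected is not given in the sources used here. All 65 together had 1629 to 2590 reads across controls 2 to 4, against 379 to 620 across 4A1 KO libraries 2 to 4, less than H2ax alone had (2662 to 3589 and 2245 to 2539). H2ac11, H2ac24 and H2ac15, H2A genes of the large histone cluster on chromosome 13, had the smallest adjusted p of the list, and are among these 17. H2ac15 had 77, 45 and 116 reads in controls 2 to 4, against 1, 1 and 4 in 4A1 KO libraries 2 to 4, too few for a fold change of any precision. The 5 genes with at least 10 reads in all 6 libraries, named after their values were seen, were H1f2, H1f4, H2bc21, H4c2 and H4c9. H4c9, H1f4 and H4c2 fell by 1.75 (adjusted p = 4.27e-04, edgeR), 1.62 (adjusted p = 6.50e-04, edgeR) and 1.29 (adjusted p = 0.00212, edgeR) on the log2 scale, and H1f2 had -0.05 (adjusted p = 0.845, edgeR). H2bc21 rose by 0.56 (SE 0.21, adjusted p = 0.0459, edgeR). Genes of this family are near-identical, so their single values are uncertain.

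Of 10 other variant histone genes, 9 were found in the table under these symbols and 3 were tested. The tenth, H3f5, is listed there as Gm12657 and was matched above as an H3f3a pseudogene. H2aj, a replication-independent H2A variant, rose by 0.66 on the log2 scale (SE 0.06, adjusted p = 3.06e-05, edgeR), from 43.6 ± 4.32 to 69.1 ± 8.21 CPM (SD, n = 3). Cenpa, the centromeric H3, fell by 1.40 (SE 0.13, adjusted p = 4.39e-05, edgeR), from 17.8 ± 5.85 to 6.57 ± 1.31 CPM. H1f10, a linker histone variant, fell by 1.22 (SE 0.40, adjusted p = 0.0282, edgeR), from 1.10 ± 0.577 to 0.453 ± 0.189 CPM. Macroh2a2, the paralogue of Macroh2a1, had 9 reads in all 8 libraries and was not tested.

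Of 9 general histone chaperones 4 were called lower, 0 higher and 5 not called, with a median log2 fold change of -0.49. Of all genes 13.7% were called lower and 11.6% higher. Hells, a chromatin remodeller, fell by 1.04 (SE 0.06, adjusted p = 1.31e-05, edgeR) and the CAF-1 subunits Chaf1a and Chaf1b, which place histones behind the replication fork, fell by 1.19 (SE 0.08, adjusted p = 1.65e-05, edgeR) and 1.60 (SE 0.11, adjusted p = 1.78e-05, edgeR). Of 15 S phase genes 13 were called lower and 0 higher, against the same shares of all genes, with a median of -0.95. Slbp, which binds the histone stem-loop, fell by 0.93 (SE 0.06, adjusted p = 1.53e-05, edgeR), and the helicase subunits Mcm4 and Mcm7 fell by 0.87 (SE 0.06, adjusted p = 1.71e-05, edgeR) and 1.12 (SE 0.08, adjusted p = 1.84e-05, edgeR). The S phase genes summed to 5458 to 6139 CPM across controls 2 to 4, against 2938 to 3879 across 4A1 KO libraries 2 to 4, and their part in the differences of the members was not tested.

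**Figure D4:**
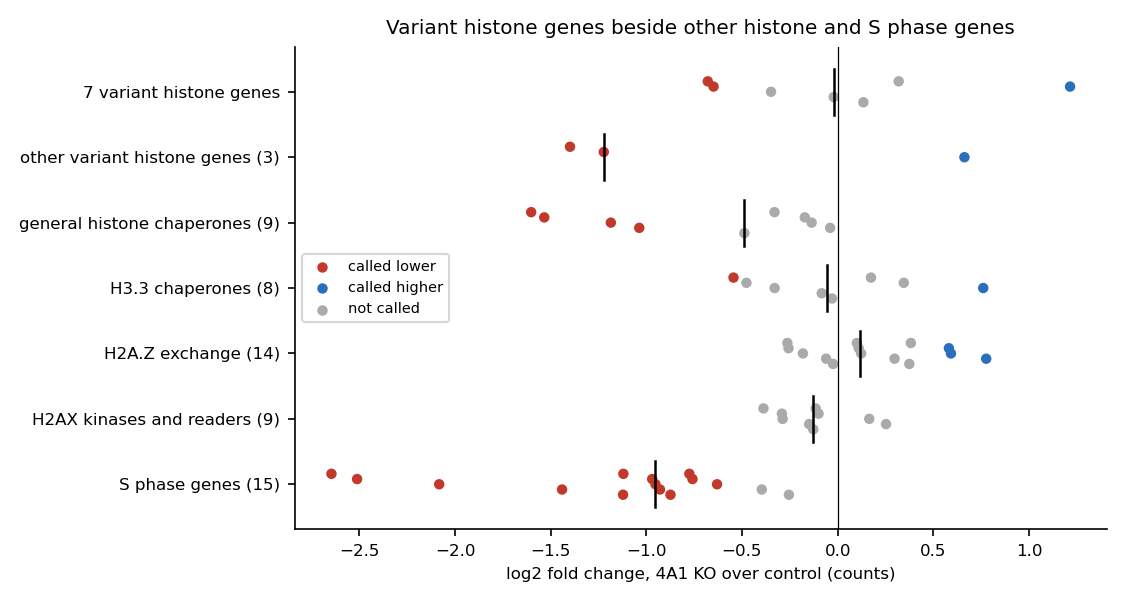
log2 fold change of 4A1 KO over control in counts for the members and for the tested genes of each other list, the replication-dependent histone genes left out; each point is a gene, the number tested is in brackets and the black line is the median. The members spread on both sides of 0 around a median of -0.02, whereas the S phase genes have a median of -0.95.

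The genes whose log2 CPM was most like that of each member over the 8 libraries were found by Pearson's r across all genes tested, as a description. They share libraries and depth with the member. H2az1 was most like Ppm1g (r = 0.997) and Ccdc34 (0.996), and H2az2 most like Susd1 (0.996) and Gbp2 (0.993). H3f3a was most like Fcrl1 (0.984) and Cutc (0.983), and H3f3b most like Ptp4a2 (0.990) and Nipsnap2 (0.989). H1f0 was most like Gm20075 (0.996) and Pias3 (0.993). H2ax was most like Cenpl (0.953) and Snx14 (0.947), and Macroh2a1 most like Jmjd7 (0.978) and Pigr (0.968). Among the members, H3f3b and H1f0 had the highest r (0.931) and H2az1 and H1f0 the lowest (-0.85).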

How the data were processed

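The authors trimmed the reads (Trim Galore 0.6.6), mapped them to GRCm39 with HISAT2 2.1.0 and deposited raw counts per gene, made with Seqmonk over merged isoforms with strand taken into account. The deposited TPM are StringTie 2.1.1 values that the authors made from the same alignments. No per-sample column was left unused. Depth was 38488341 to 43210858 counted reads in replicates 2 to 4; SDs describe the spread between libraries.

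The test of the counts was that of edgeR 4.0.16 in R 4.3.3 (filterByExpr by genotype, TMM, quasi-likelihood test, two-sided, batch and sex as covariates, Benjamini-Hochberg over 14218 genes). Standard errors are the fold change over the root of F, and CPM use TMM factors over 8 libraries. For TPM, limma 3.58.1 was fitted to log2(TPM + 1) of the 12976 genes averaging 1 TPM or more. In the 6 libraries batch and sex equal the replicate number as a block; the pairing comes from the labels, and same-numbered libraries deviated together (r = 0.375 to 0.512 across genes). Interactions with sex and batch were fitted on 8 libraries. Pseudogenes were matched with blastn 2.17.0.

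Alternatives were DESeq2 1.42.0, other scalings, filters and pseudocounts (0.1), all 8 libraries, each replicate left out, no block and pseudogenes added. In simulated counts for this comparison (14054 genes, log2 changes of 1.5), edgeR recovered 200 of 200 changed genes with 3 false calls. With limma 196 of 200 were recovered, with 1 false call among 11789. The changed genes were drawn from those above a floor of expected reads, and no batch or sex effect was simulated. The change of 1.5 is larger than that of any member, so recovery of changes of the members' size was not tested.

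The members and lists were chosen with earlier results of these data known. Named genes are the members, Eif4a1, the 3 genes of each list with the smallest adjusted p, called genes of the H2AX, H2A.Z and H3.3 lists, the 2 genes most like each member (log2 CPM, prior count 2) and matched pseudogenes. Outside that rule are the cell type markers, H4c9 for its stem-loop, the 5 replication-dependent genes with reads in all libraries, and Macroh2a2 and H3f5 as variants not tested. A B cell marker and the sum over that list are not reported here.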

Additional observations from a re-analysis of the deposited data

Results flagged for a closer look

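In groups of 4 libraries, 36 sets of member values and paralogue sums and shares were examined for a library far from the others, and 3 were found; chance gives about 1 in 20. H2az2 in control had a gap of 0.873 of the group's range, with control 2 at 31.0 TPM and the others between 18.7 and 20.3. Macroh2a1 in 4A1 KO had a gap of 0.977, with 4A1 KO 1 at 351 TPM and the others at 364 each; 4A1 KO 1 belongs to the replicate that the study left out. The share of H2az2 in H2A.Z TPM in 4A1 KO had a gap of 0.836, with 4A1 KO 2 at 5.72% and the others between 3.52% and 3.88%. No member's genotype effect differed between the sexes or the batches after adjustment over 14211 genes (edgeR, 14 terms): H2ax with sex and H1f0 with batch had an unadjusted p under 0.05, and across all genes 0 passed for sex and 1 for batch.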

How the results depend on the processing

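Of 84 log2 fold changes of the members under alternative settings in counts, 82 kept their direction and their side of the call, and of 49 in TPM 48 did. The exceptions were H2az2 without the replicate block (-0.71 in counts, -0.67 in TPM), no longer called, and Macroh2a1, never called, whose value of -0.02 became 0.0023 with upper quartile scaling; the cause was not tested. Ignoring the pairing changed no other member's call, although H3f3b lost its adjusted p under 0.05. With one replicate left out, the log2 fold changes in counts ran from -0.71 to -0.56 for H2az1, -0.84 to -0.54 for H2az2, 0.07 to 0.17 for H3f3a, 0.28 to 0.36 for H3f3b, 1.11 to 1.34 for H1f0, -0.47 to -0.22 for H2ax and -0.03 to -0.01 for Macroh2a1. Over the 12 alternatives in counts the adjusted p of H2az2 lay between 1.62e-05 and 0.0674, that of H3f3b between 1.03e-06 and 0.0926 and that of H2ax between 7.86e-04 and 0.0780. Genes called numbered 3596, and 2592 to 3821 under the alternatives, where 3000 were called without the block. The H2az2 share of H2A.Z TPM, 4A1 KO minus control, changed sign with a replicate left out (-0.25 to 0.10 percentage points). In TPM (limma) H2ax lost its adjusted p under 0.05 in 3 of 7 alternatives, with 0.123 without the filter, 0.0847 without replicate 2 and 0.0600 without replicate 4. The members with the fewest reads were H1f0 (175 to 556 per library) and H2az2 (252 to 930), and counting error weighs most on these.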
